A study of Mus musculus with 9 samples.

Results

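The 41 ribosome biogenesis genes described here encode proteins that make, modify and assemble ribosomal RNA: RNA polymerase I and its factors, the core proteins of the small nucleolar ribonucleoproteins (snoRNPs), nucleolar chaperones, and assembly factors of the small and the large ribosomal subunit. They were taken by symbol from the 43346 genes listed in the deposited table. Each of the 41 symbols was found once, and all 41 passed the filter on low counts that left 15024 genes for testing.

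Whole liver of C57/BL6 mice aged 12 weeks was profiled by RNA-Seq of polyadenylated RNA in 3 groups of 3 livers. Baseline livers (0 h) were the specimens resected from vehicle-treated mice during 70% partial hepatectomy, an operation after which the remnant regrows. The other groups were remnants taken at 40 h from vehicle-treated mice and from mice given NSC-87877 (NSC), an inhibitor of the tyrosine phosphatase SHP2 that also acts on SHP1, at 7.5 mg/kg per dose and 2 doses per day. The labels place the first dose 12 h before surgery for both treatments. No NSC-treated liver from 0 h was analysed here, so both 40 h groups were set against the same 3 vehicle baselines. The labels do not say that equal replicate numbers mark 1 mouse, and the p-values measure the spread between these livers.

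A ribosome is made mainly in the nucleolus. RNA polymerase I transcribes a long precursor RNA, box C/D and box H/ACA snoRNPs guide its methylation and pseudouridylation, and a series of assembly factors cuts, folds and exports the subunits. Cells that grow before division need more ribosomes, and the remnant liver is a textbook case of such growth.

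Libraries held 23997363 to 42887589 counts on genes. The members' counts were never below 85 in a library. Hepatocyte markers were abundant in every library, with at least 75127 CPM (counts scaled to a common library size) for Alb in each, and all 7 proliferation markers rose in both 40 h groups. NSC replicate 1 stood apart from the other NSC livers. Its Ccnb1 level was 8.31 CPM against 115 and 108, and its Adgre1 level, a macrophage marker, was 32.2 CPM against 9.68 and 12.3. The summed macrophage markers spanned 95.6 to 142 CPM at baseline, 78.1 to 158 with vehicle and 152 to 271 with NSC, and 2 of 5 were called higher in each 40 h group. Marco alone spanned 2.62 to 5.07, 17.0 to 52.7 and 38.4 to 108 CPM. Cd68 was also above all baseline livers in both 40 h groups. The other macrophage markers, Adgre1, Clec4f and Csf1r, overlapped their baseline ranges in both 40 h groups. Clec4f spanned 56.2 to 89.97, 37.5 to 60.7 and 67.4 to 82.4 CPM. Csf1r spanned 23.97 to 34.3, 12.5 to 28.7 and 23.7 to 37.3 CPM. The summed neutrophil markers spanned 1.77 to 6.48, 7.60 to 15.0 and 10.6 to 16.6 CPM, with 1 of 3 tested called higher with vehicle and 3 with NSC. Of 3 cholangiocyte markers 2 were called higher in both groups, of 4 stellate markers 2 with vehicle, and 1 of 5 hepatocyte markers was called lower with NSC. Of 4 endothelial markers 1 was called lower with vehicle, and of 3 lymphocyte markers tested 1 was called lower in each 40 h group. The part of these cells in the results was not tested. In whole tissue, fewer cells of a type and less RNA per cell cannot be told apart.

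In vehicle-treated mice, 13 of the 41 members were higher at 40 h than at baseline and none was lower, where a call needed an adjusted p under 0.05 in edgeR's quasi-likelihood test with Benjamini-Hochberg adjustment over all genes tested. This is 31.7% of the members, against 12.7% of all genes tested that were higher and 11.0% that were lower. The risers were Nop56, Nop58, Gar1, Nolc1, Ddx21, Heatr1, Tsr1, Bysl, Nob1, Rrp12, Nop2, Rrs1 and Noc3l. The members' median log2 fold change was 0.33, beside 0.01 over all genes tested, and 33 of 41 had a positive value. All vehicle livers lay above all baseline livers for 22 members, against 24.2% of all genes, and below them for 2 (Nop10 and Npm3), against 22.0%. No member had a called log2 fold change past 1.5, where 5.03% of all genes did so upward. With 1 library left out, the count fell to 7 without baseline replicate 1, without baseline replicate 3 or without vehicle replicate 1. Over all genes tested, the number called higher fell as well, from 1914 to 1217, 1236 and 1329 in these 3 fits. Nop56, Nop58, Heatr1, Tsr1, Bysl and Rrs1 were called in each of those 3 fits.

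In NSC-treated mice, 14 members rose from baseline and 2 fell, beside 18.2% of all genes tested that rose and 16.5% that fell. The risers were Nop56, Nop58, Gar1, Nhp2, Npm1, Ddx21, Tsr1, Nob1, Wdr43, Wdr75, Wdr12, Rrs1, Noc3l and Nip7, and the members that fell were Rrp1 and Bop1. The median log2 fold change was 0.34, beside 0.01 over all genes, and 31 of 41 values were positive. All NSC livers lay above all baseline livers for 21 members, against 24.0% of all genes, and below them for 5 (Polr1b, Pes1, Bop1, Rrp1 and Noc2l), against 23.1%. Scaling by library size alone gave 21 higher and 0 lower, and correction for GC content gave 10 higher and 0 lower. Over all 15024 genes the first gave 3399 higher and 1795 lower and the second 1834 and 2778. Without these changes, 2728 were higher and 2479 lower. Without NSC replicate 1, 13 rose and 0 fell, and 11 of these were also called with all libraries. Without baseline replicate 3, only 7 were called, all higher. Over all genes, 2732 rose and 2454 fell in the first of these 2 fits, and 1854 rose and 1750 fell in the second.

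**Figure D1:**
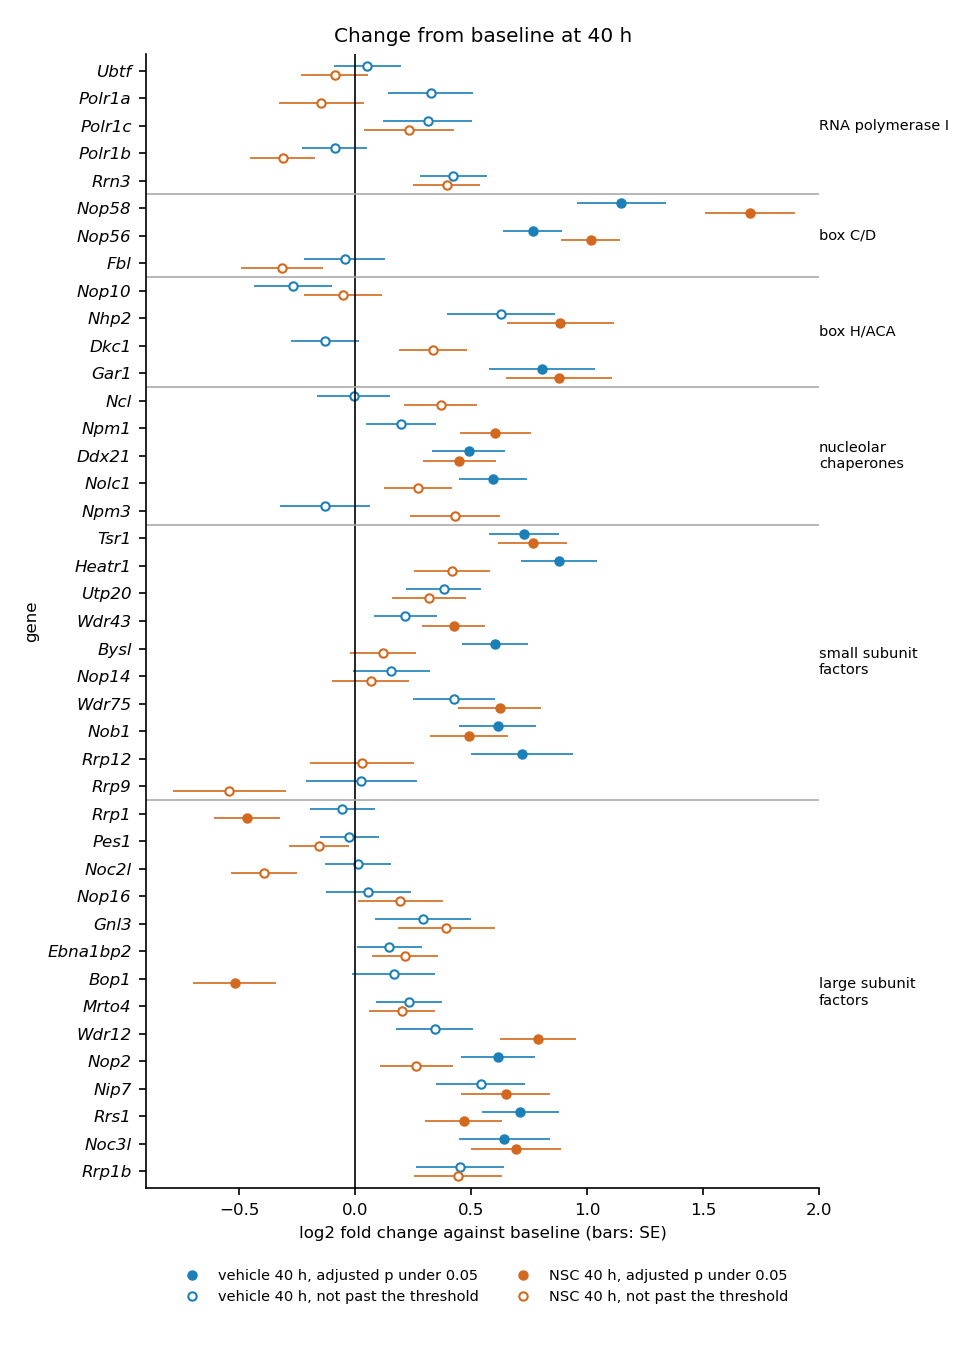
Log2 fold change of the 41 members at 40 h against baseline (x axis, bars are SE), vehicle in blue and NSC in orange, with genes grouped by role on the y axis; filled dots had an adjusted p under 0.05. Nop58 has the largest values, 1.15 and 1.70, and no gene of the RNA polymerase I group is filled. Both sets of dots share the 3 baseline livers.

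**Figure D2:**
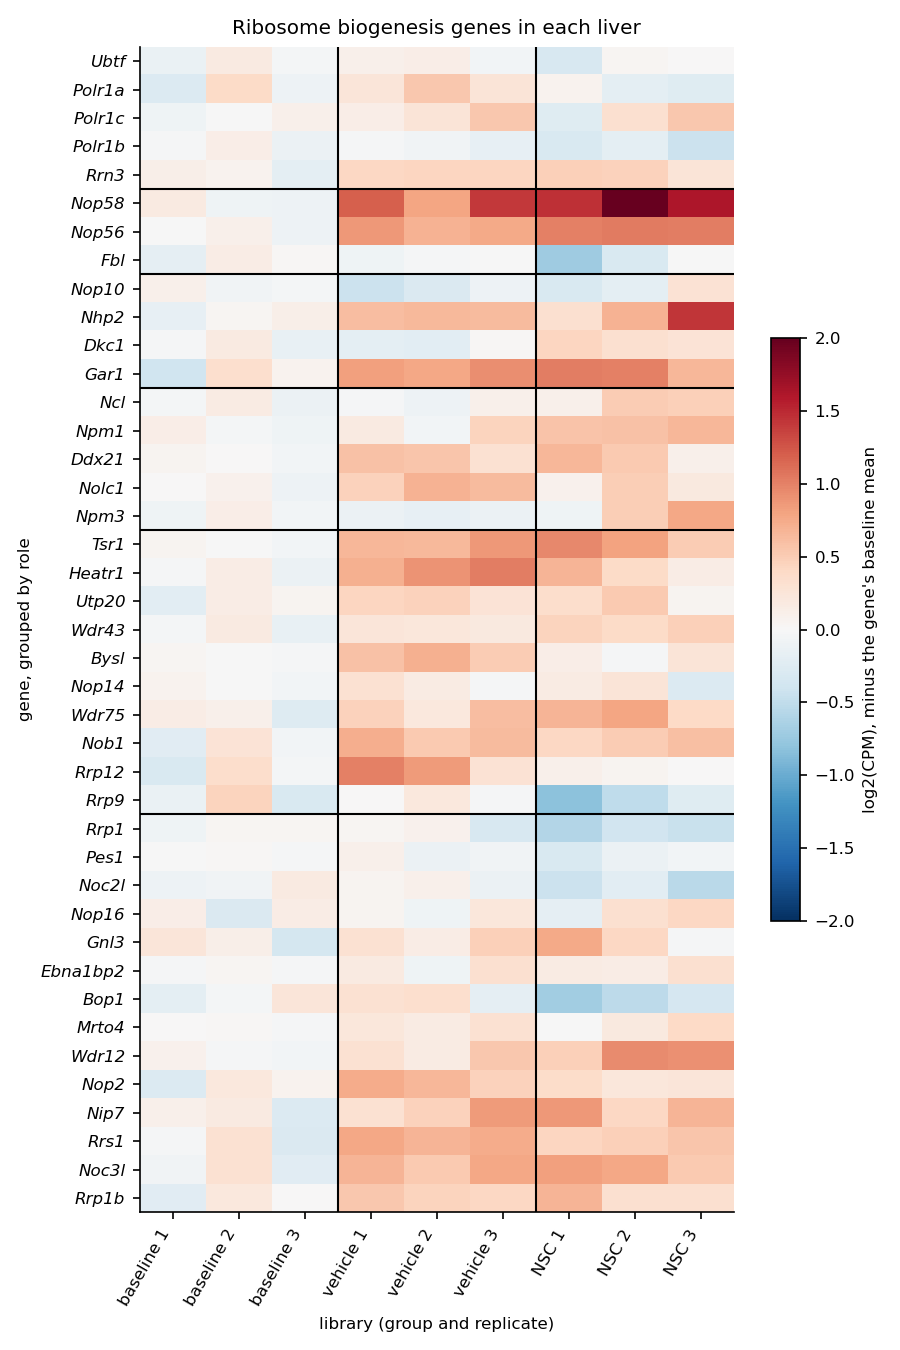
Heat map of log2(CPM) minus the gene's mean over the 3 baseline livers, with 9 libraries as columns and 41 members as rows grouped by role. Nop58 and Nop56 are above baseline in all 6 livers taken at 40 h, whereas Fbl and Pes1 are not.

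In the RNA polymerase I group, the edgeR fit used for the calls above called no member in any comparison. DESeq2 called Rrn3 higher in both 40 h groups, and some alternative edgeR fits also called it. The group comprises Polr1a and Polr1b, the 2 largest subunits of the enzyme, and Polr1c, a subunit shared with RNA polymerase III. Its other members are Ubtf, which binds ribosomal DNA, and Rrn3, which brings the polymerase to the promoter. Ubtf, the most abundant of them by CPM, lay at 48.1, 60.1 and 51.2 CPM at baseline, 56.6, 58.0 and 50.7 with vehicle, and 42.6, 54.1 and 53.3 with NSC. These 3 ranges overlapped, with log2 fold changes from baseline of 0.05 ± 0.15 (SE) and -0.09 ± 0.15, both within 1 SE of 0. Correction for GC content turned the sign of both Ubtf values, and scaling by library size turned that of the second.

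Polr1a was at 17.7, 28.0 and 20.0 CPM at baseline, 25.5, 31.1 and 25.7 with vehicle, and 22.4, 18.8 and 18.1 with NSC. All 3 vehicle remnants were above all 3 NSC remnants, but the log2 difference of -0.47 ± 0.18 (SE) did not pass the test (edgeR adjusted p = 0.195). Rrn3 came nearest to the threshold. It lay between 11.3 and 14.0 CPM at baseline and between 15.4 and 18.0 CPM in the 6 later livers, without overlap. Its log2 fold changes were 0.42 with vehicle and 0.39 with NSC, each ± 0.14 (SE), and both missed the threshold in edgeR (adjusted p = 0.0511 and 0.051). DESeq2 and the minimum of 10 counts in every library called Rrn3 in both. The vehicle call was also made with only the groups compared and without NSC replicate 1 or 3, and the NSC call with library size only and without NSC replicate 3. After GC correction the values were 0.26 and 0.12, neither of them called.

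The member with the highest log2 fold change in both 40 h groups, Nop58, belongs to the box C/D snoRNP, the particle that methylates ribosomal RNA. With vehicle, Heatr1 and Gar1 had higher values than Nop56, and after GC correction Gar1, at 1.21 with NSC, was above Nop58. Nop58 and Nop56 are its paired scaffold proteins and Fbl is its methyltransferase. Nop58 lies on chromosome 1 at 59684971 to 59719044 and Nop56 on chromosome 2 at 130274430 to 130279313, in the mouse coordinates of the deposited table.

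Nop58 was at 19.3, 16.0 and 15.8 CPM at baseline, 38.7, 29.2 and 45.4 with vehicle, and 46.9, 67.5 and 51.7 with NSC. The 3 groups did not overlap. The mean went from 17.0 ± 1.97 CPM (SD, n = 3) to 37.8 ± 8.11 and 55.4 ± 10.8. The log2 fold change was 1.15 ± 0.19 (SE) with vehicle, a 2.22-fold rise (edgeR adjusted p = 0.00155). With NSC it was 1.70 ± 0.19, a 3.25-fold rise (edgeR adjusted p = 0.000119). It was the only member with a called log2 fold change past 1.5, where 5.38% of all genes were higher by that much with NSC.

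Nop56 was at 16.8, 18.1 and 15.8 CPM at baseline, 30.6, 27.2 and 28.5 with vehicle, and 33.8, 34.5 and 34.2 with NSC. Again the groups did not overlap. The rise was 1.70-fold with vehicle, with a log2 fold change of 0.77 ± 0.13 (SE; edgeR adjusted p = 0.00149). It was 2.02-fold with NSC, with a log2 fold change of 1.02 ± 0.13 (SE; edgeR adjusted p = 0.000197).

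Fbl, the enzyme of the same particle, was not called with all libraries. It was at 20.3, 25.3 and 23.3 CPM at baseline, 21.5, 22.6 and 22.7 with vehicle, and 14.0, 18.6 and 22.7 with NSC. The ranges overlapped, and the log2 fold changes were -0.04 ± 0.17 and -0.32 ± 0.18 (SE). Without NSC replicate 3 Fbl was called lower with NSC.

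Nop56 and Nop58 also host snoRNAs in their introns. By the deposited coordinates, 5 snoRNA genes lay inside Nop56 and 4 inside Nop58, on the same strand, and 7 of the 41 members (17.1%) held at least 1, beside 1.77% of the 13264 protein-coding genes tested. The other hosts were Ncl, Wdr43 and Gnl3 with 3 each, Tsr1 with 2 and Dkc1 with 1. Of the 7 hosts, Nop56, Nop58 and Tsr1 rose with vehicle, and these and Wdr43 rose with NSC. Polyadenylated libraries do not measure mature snoRNAs, and only 1 to 177 counts per host, over all 9 libraries, fell on the snoRNA genes. A snoRNA from each of the 2 leading hosts is shown, from GENCODE M21 (GRCm38), to let the guide's landmarks be seen. Capitals mark the first TGATGA (box C) and the last CTGA (box D), searched on the RNA strand; 3 of the 9 snoRNAs in Nop56 and Nop58 held both with CTGA in the 3′ portion, beside 24.8% of all 1507 snoRNA transcripts.
Snord110, in Nop56, chr2:130275506-130275573, plus strand: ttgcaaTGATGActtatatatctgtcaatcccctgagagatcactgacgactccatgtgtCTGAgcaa
Snord11, in Nop58, chr1:59704790-59704873, plus strand: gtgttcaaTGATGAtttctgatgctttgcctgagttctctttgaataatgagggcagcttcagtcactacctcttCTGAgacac

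The box H/ACA snoRNP, which converts uridine to pseudouridine, was also uneven. Dkc1 is its enzyme, and Gar1, Nhp2 and Nop10 are its other core proteins. Gar1, with the lowest mean CPM of the 41 genes over all 9 libraries, rose from 2.69, 4.49 and 3.73 CPM at baseline to 6.26, 6.06 and 6.75 with vehicle. It was at 7.26, 7.17 and 5.64 CPM with NSC, also above every baseline liver. The log2 fold changes were 0.81 and 0.88, each ± 0.23 (SE; edgeR adjusted p = 0.023 and 0.0108). The vehicle call was lost without baseline replicate 1 or 3 and without vehicle replicate 1 or 3.

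Nhp2 was at 14.5, 16.7 and 17.6 CPM at baseline, 24.9, 25.6 and 25.0 with vehicle, and 20.2, 26.4 and 43.6 with NSC. Neither later group overlapped the baseline, and NSC replicate 3 was far above the other livers. The log2 fold change passed the test with NSC (0.89 ± 0.23 SE, edgeR adjusted p = 0.0119) and not with vehicle (0.63 ± 0.23 SE, edgeR adjusted p = 0.068). The vehicle value was called with the replicate number as a block, without a count filter, with only the groups compared, and without NSC replicate 1 or 3.

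Dkc1 was at 15.4, 17.8 and 14.2 CPM at baseline, 13.8, 13.7 and 16.0 with vehicle, and 21.1, 19.7 and 19.1 with NSC. All NSC livers were above all others, but neither the log2 fold change of 0.34 ± 0.15 (SE) from baseline nor that of 0.46 ± 0.15 from vehicle passed the test. After GC correction the first became -0.13, and with library size only it was called. Nop10, with the highest length-scaled level of the 41 genes at baseline (37.4 ± 2.19 FPKM, fragments scaled by gene length and library size, SD, n = 3), was not called. It lay at 46.1, 41.04 and 41.9 CPM at baseline, 31.9, 35.3 and 40.1 with vehicle, and 34.6, 37.4 and 52.5 with NSC. All vehicle livers were below all baseline livers, while NSC livers overlapped both groups.

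**Figure D3:**
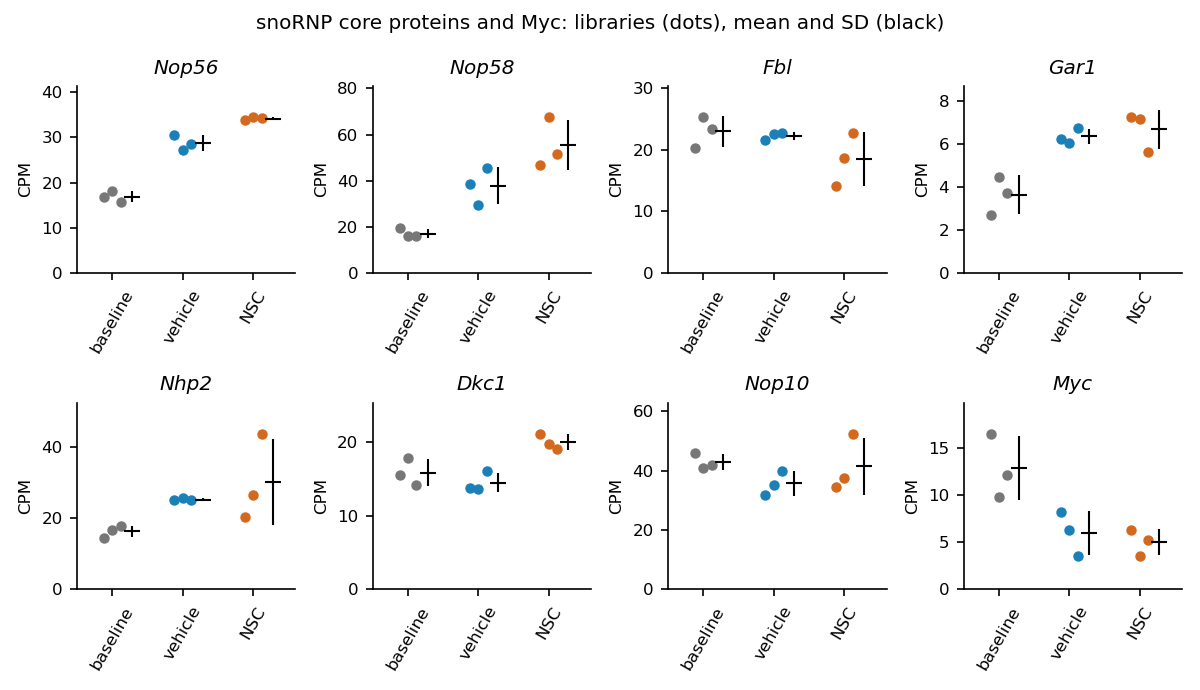
CPM of the 7 snoRNP core proteins and of Myc in each liver (dots, 3 per group), with the group mean and SD in black and axes from 0. Nop56, Nop58, Gar1 and Nhp2 lie above baseline in all 6 livers at 40 h, Fbl and Nop10 do not, and Myc lies below baseline in all 6.

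Of the 5 nucleolar chaperones and helpers, 2 rose with each treatment. Ncl (nucleolin) and Npm1 (nucleophosmin), abundant RNA-binding proteins of the nucleolus, had the highest CPM of all 41 genes. Ncl was at 143, 164 and 135 CPM at baseline, 145, 137 and 158 with vehicle, and 157, 208 and 204 with NSC. The groups overlapped, and its log2 fold changes were -0.00 ± 0.16 and 0.37 ± 0.16 (SE), neither past the threshold. The NSC value became -0.12 after GC correction, and it was called with library size only and without NSC replicate 1.

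Npm1 was at 90.2, 80.7 and 77.7 CPM at baseline, 93.5, 79.5 and 112 with vehicle, and 123, 124 and 131 with NSC. The 3 NSC livers were above all others. The log2 fold change was 0.61 ± 0.15 (SE) with NSC (edgeR adjusted p = 0.00932), but 0.10 after GC correction, which was no longer called. With vehicle it was 0.20 ± 0.15 and was not called. Npm1 has processed copies elsewhere in the genome, so its counts are uncertain.

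Ddx21, an RNA helicase, rose in both comparisons, with log2 fold changes of 0.49 and 0.45, each ± 0.16 (SE; edgeR adjusted p = 0.0418 and 0.0442). Both calls were lost after GC correction, at 0.33 and 0.16. The vehicle call was also lost in 6 of 9 single omissions (any baseline replicate, vehicle replicate 1 or 2, NSC replicate 2) and with library size only, and the NSC call in 7 of 9 (the same and NSC replicate 1), without a count filter and with only the groups compared. Nolc1, which binds snoRNPs, rose with vehicle (0.60 ± 0.15 SE, edgeR adjusted p = 0.0121), a call lost without baseline replicate 3. With NSC its value was 0.27 ± 0.15 and was not called, except with library size only. Npm3, a partner of Npm1, had log2 fold changes of -0.13 and 0.43, neither of them called. The NSC value of Npm3 was called with library size only and, at 0.63, without NSC replicate 1.

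Among the 10 small subunit factors, 5 rose with vehicle and 4 with NSC, and none fell. Heatr1, Wdr43 and Wdr75 belong to the complex that first loads on the precursor RNA, and Utp20, Nop14, Rrp9 and Rrp12 act in the particles that follow. Bysl and Tsr1 stay on the late particle, and Nob1 makes the final cut of the small subunit RNA.

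Heatr1 was at 17.2, 19.3 and 16.1 CPM at baseline, 28.6, 32.5 and 35.7 with vehicle, and 28.0, 22.9 and 19.4 with NSC. Every vehicle liver was above every NSC liver, and every NSC liver was above the baseline. Its log2 fold change was 0.88 ± 0.16 (SE) with vehicle (edgeR adjusted p = 0.00296), and 0.42 ± 0.16 with NSC missed the threshold (edgeR adjusted p = 0.0675). The NSC value was called with library size only and without NSC replicate 3.

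Tsr1 was at 17.6, 16.8 and 16.1 CPM at baseline, 26.7, 26.3 and 30.7 with vehicle, and 32.7, 29.3 and 23.9 with NSC. Both later groups were above the baseline and overlapped each other. The log2 fold changes were 0.73 and 0.77, each ± 0.15 (SE; edgeR adjusted p = 0.00475 and 0.00249).

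Bysl was at 13.5, 12.9 and 12.8 CPM at baseline, 19.6, 21.4 and 18.5 with vehicle, and 14.2, 12.8 and 15.5 with NSC. Vehicle livers stood above both other groups, which overlapped. For Bysl the log2 fold change was 0.60 ± 0.14 (SE) with vehicle (edgeR adjusted p = 0.0092) and 0.12 ± 0.14 with NSC. Rrp12 had a similar order, at 5.91, 9.34 and 7.13 CPM at baseline, 14.7, 13.2 and 8.93 with vehicle, and 7.86, 7.61 and 7.40 with NSC. Here 1 vehicle liver overlapped the baseline. Its log2 fold change was 0.72 ± 0.22 (SE) with vehicle (edgeR adjusted p = 0.0341) and 0.03 ± 0.22 with NSC. The vehicle call was lost without baseline replicate 1 or 3, or without vehicle replicate 1 or 2, with values of 0.57 to 0.92 over all single omissions.

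Nob1 rose in both comparisons, by 0.61 and 0.49 on the log2 scale, each ± 0.17 (SE; edgeR adjusted p = 0.0198 and 0.0395). The vehicle call was lost without baseline replicate 1 or 3 or vehicle replicate 1. The NSC call was lost in 6 of 9 single omissions (baseline replicate 1 or 3, vehicle replicate 1 or 2, NSC replicate 2 or 3), without a count filter, with only the groups compared and under the block. Wdr43 and Wdr75 rose with NSC, at 0.43 ± 0.14 and 0.62 ± 0.18 (SE), and their values were 0.00 and 0.21 after GC correction, not called. Both calls were lost without baseline replicate 3 or NSC replicate 2, and that of Wdr43 also without baseline replicate 1, vehicle replicate 1 or NSC replicate 3. With vehicle their values were 0.22 and 0.43, which did not pass the test. Utp20, Nop14 and Rrp9 were not called with all libraries in any comparison (Utp20 was called with NSC without NSC replicate 3), with log2 fold changes from baseline of -0.54 to 0.38.

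Of the 14 large subunit factors, 3 rose with vehicle, and with NSC 4 rose and 2 fell. Pes1, Bop1 and Wdr12 form 1 complex that is needed to cut the large subunit precursor. Pes1 was at 33.6, 34.5 and 33.5 CPM at baseline, 36.4, 31.3 and 32.2 with vehicle, and 27.5, 31.3 and 32.4 with NSC. All 3 NSC livers were below the baseline livers, but the log2 fold change of -0.15 ± 0.13 (SE) was not called.

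Wdr12 was at 14.9, 14.0 and 13.6 CPM at baseline, 17.5, 15.9 and 20.5 with vehicle, and 19.7, 27.2 and 26.6 with NSC. Both later groups were above the baseline. Its log2 fold change passed the test with NSC (0.79 ± 0.16 SE, edgeR adjusted p = 0.00357) and not with vehicle (0.34 ± 0.16 SE, edgeR adjusted p = 0.151). After GC correction the NSC value was 0.21 and was not called.

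Bop1 was at 21.4, 23.9 and 29.1 CPM at baseline, 30.5, 31.2 and 21.8 with vehicle, and 15.2, 17.2 and 19.5 with NSC. The NSC livers were below both other groups. The log2 fold change from baseline was -0.52 ± 0.18 (SE, edgeR adjusted p = 0.042). It was -0.13 after GC correction, -0.38 when scaled by library size and -0.43 without NSC replicate 1, each not called, and the call was also lost without vehicle replicate 1 or NSC replicate 2.

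Rrp1 was at 63.9, 69.4 and 69.3 CPM at baseline, 69.4, 71.8 and 53.8 with vehicle, and 45.0, 51.7 and 49.8 with NSC. It too was lowest in the 3 NSC livers. Its log2 fold change was -0.47 ± 0.14 (SE) with NSC (edgeR adjusted p = 0.0236) and -0.05 ± 0.14 with vehicle. The NSC value became -0.23 after GC correction, -0.33 when scaled by library size and -0.41 without NSC replicate 1, each not called. Without baseline replicate 2 or 3, Rrp1 and Bop1 were not called either.

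Rrs1 and Noc3l, assembly factors of the early large subunit, rose in both comparisons. Rrs1 had log2 fold changes of 0.71 and 0.47, each ± 0.17 (SE; edgeR adjusted p = 0.0092 and 0.0461). The NSC call of Rrs1 was lost in 8 of 9 single omissions, all but that of baseline replicate 2, and without a count filter, with only the groups compared and under the block. Noc3l had 0.64 and 0.69, each ± 0.20 (SE; edgeR adjusted p = 0.0319 and 0.0164), and was not called in either after GC correction or without baseline replicate 1 or 3. Its vehicle call was also lost without vehicle replicate 1 or 3, and its NSC call without NSC replicate 2. Nop2, a methyltransferase of the large subunit RNA, rose with vehicle (0.62 ± 0.16 SE, edgeR adjusted p = 0.015), a call lost without baseline replicate 1 or vehicle replicate 1. Nip7 rose with NSC (0.65 ± 0.19 SE, edgeR adjusted p = 0.0213), with 0.31 after GC correction, not called, and the call was lost without baseline replicate 3 or NSC replicate 1. Nop16, Rrp1b, Ebna1bp2, Gnl3, Noc2l and Mrto4 were not called in either comparison by the edgeR fit used for the calls above, with values from -0.39 to 0.45. Noc2l, at -0.39 with NSC, was called lower by DESeq2, with RLE factors and without NSC replicate 2. With NSC, Gnl3 was called without NSC replicate 3, and Rrp1b with library size only.

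The direct comparison asked whether treatment changed these levels at 40 h. No member passed the test between NSC and vehicle, where 6 of the 15024 genes (0.0399%) did, all lower. The members' median log2 difference was -0.03 beside 0.02 over all genes, with 18 of 41 positive, and scaling by library size turned it to 0.09 while moving the median of all genes to 0.14. DESeq2 called 2 members lower with NSC, Bop1 and Bysl, and over all genes 286 higher and 470 lower. At an unadjusted p under 0.05, 6 members were higher (9.3% of all genes) and 10 lower (10.2%), and 19.5% of all genes passed in either direction. NSC and vehicle livers did not overlap for 17 members, of which 6 were higher (10.3% of all genes) and 11 lower (12.2%).

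The 4 members with the smallest p were Bop1, Bysl, Dkc1 and Rrp12. Their log2 differences between NSC and vehicle were -0.69 ± 0.18, -0.48 ± 0.14, 0.46 ± 0.15 and -0.69 ± 0.22 (SE), with edgeR adjusted p from 0.099 to 0.14. For Nop58 the difference was 0.55 ± 0.19 (SE, edgeR adjusted p = 0.154), so its higher mean with NSC than with vehicle was not past the threshold. Without NSC replicate 1, 3 members were called: Wdr12 at 0.58 and Npm3 at 0.76, both higher, and Heatr1 at -0.61. The same omission took the calls over all genes from 6 to 574 higher and 420 lower.

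GC content moved with the treatment difference. Across the 41 members, the Pearson correlation of the log2 difference between NSC and vehicle with the GC content of the longest transcript was -0.68, and the Spearman correlation was -0.66. The genes share the same 6 libraries and are not independent. Over 14900 tested genes the Spearman correlation was -0.56. The 6 members that were higher with NSC at an unadjusted p under 0.05 (Nop58, Dkc1, Ncl, Npm1, Npm3 and Wdr12) had a median GC content of 42.6%, and the 10 lower ones (Polr1a, Nolc1, Heatr1, Rrp9, Rrp12, Bysl, Bop1, Nop2, Rrp1 and Noc2l) 55.4%. After correction the Spearman correlation over the members was -0.17, and no member was called. For vehicle against baseline it was -0.02 before correction, and for NSC against baseline -0.49.

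Correction for GC content moved the median of all genes to -0.11 with vehicle and -0.08 with NSC, and that of the members to 0.20 in both. Of the 13 vehicle calls, 11 remained, without Ddx21 and Noc3l, and Dkc1 was called lower. Of the 16 NSC calls, 7 remained (Nop56, Nop58, Gar1, Nhp2, Tsr1, Nob1 and Rrs1), and Nop2, Mrto4 and Rrp1b were added. Over all genes, the correction gave 1634 higher and 2675 lower with vehicle, and 1834 and 2778 with NSC. Nop58 kept values of 0.89 and 1.14, and Nop56 0.69 and 0.99. The part of GC content in the differences between treatments was not tested beyond this correction.

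**Figure D4:**
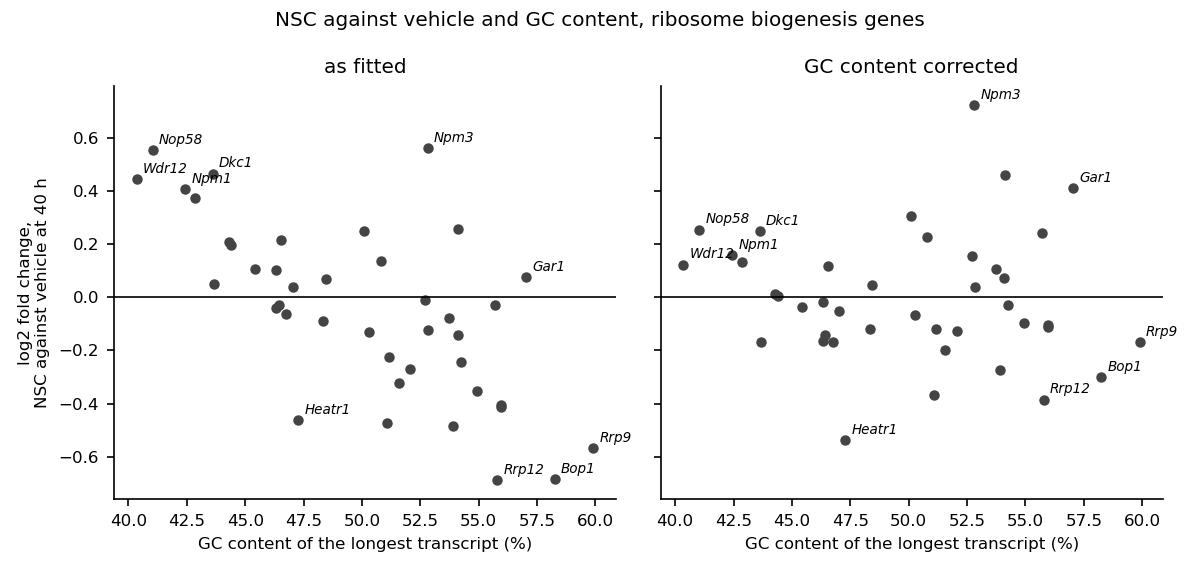
Log2 fold change of NSC against vehicle at 40 h (y axis) against the GC content of the longest transcript in percent (x axis) for the 41 members, as fitted (left) and after GC correction (right). The left panel falls from Nop58 and Wdr12 to Bop1 and Rrp9, with a Spearman correlation of -0.66, and the right panel has -0.17.

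Myc, a transcription factor known to drive many nucleolar genes, was measured beside its textbook targets. It was at 16.5, 9.83 and 12.1 CPM at baseline, 8.18, 6.25 and 3.51 with vehicle, and 6.30, 3.53 and 5.20 with NSC. Every liver at 40 h was below every baseline liver. The log2 fold changes were -1.09 ± 0.32 (SE, edgeR adjusted p = 0.0269) and -1.35 ± 0.32 (SE, edgeR adjusted p = 0.00726), and NSC differed from vehicle by -0.26 ± 0.32, which was not called. Myc RNA was thus measured at its lower level in the same livers in which Nop56 and Nop58 were at their higher one, and no earlier time was analysed here.

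MYC and related factors bind the E-box CACGTG, which reads the same on both strands. RefSeq promoters (GRCm38.p6, 250 bases before to 50 after the start) were given for 36 of the 41 members, and 6 of them (16.7%) held it, beside 8.09% of 27025 genes. Those 6 were Nop2, Rrn3, Pes1, Tsr1, Utp20 and Wdr43, of which Nop2 rose with vehicle, Wdr43 with NSC and Tsr1 with both. No entry was matched for Fbl, Rrs1, Npm1, Rrp12 and Bop1. The matches are shown with the E-box in capitals, each with its offset from the start. They are followed by upstream stretches of Nop58 and Nop56, whose windows held no CACGTG.
Nop2, offset -60, chr6:125131793-125131858, plus strand: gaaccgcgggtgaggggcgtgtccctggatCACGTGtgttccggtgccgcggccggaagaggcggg
Rrn3, offset -215, chr16:13780454-13780519, plus strand: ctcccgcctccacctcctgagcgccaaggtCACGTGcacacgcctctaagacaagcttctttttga
Rrn3, offset -48, chr16:13780621-13780686, plus strand: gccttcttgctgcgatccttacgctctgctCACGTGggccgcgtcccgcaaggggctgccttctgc
Pes1, offset 2, chr11:3963965-3963994, plus strand: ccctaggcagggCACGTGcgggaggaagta
Wdr43, offset 17, chr17:71616220-71616249, plus strand: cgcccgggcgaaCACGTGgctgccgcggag
Tsr1, offset 24, chr11:74898092-74898121, plus strand: tcacttggtgcaCACGTGgactgcagaatg
Utp20, offset 37, chr10:88826765-88826789, minus strand: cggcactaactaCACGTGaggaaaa
Nop58, no E-box, chr1:59684906-59684965, plus strand: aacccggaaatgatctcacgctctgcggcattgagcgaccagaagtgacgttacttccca
Nop56, no E-box, chr2:130274312-130274371, plus strand: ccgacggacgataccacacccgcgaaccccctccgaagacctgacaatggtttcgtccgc
A match is a description of these windows only.

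Other genes of the pathway were followed as a list of 123 tested genes. With vehicle, 20 (16.3%) rose and 4 (3.25%) fell, beside 12.7% and 11.0% of all genes, with a median log2 fold change of 0.23. With NSC, 39 (31.7%) rose and 11 (8.94%) fell, beside 18.2% and 16.5% of all genes, with a median of 0.23. The vehicle calls in either direction numbered 24 with all libraries, 10 without baseline replicate 1 or 3, 12 without vehicle replicate 3, 14 without vehicle replicate 1, 15 without baseline replicate 2 or vehicle replicate 2, and 36 without NSC replicate 1, and the 50 NSC calls became 29 without baseline replicate 3 and 33 without NSC replicate 2. Over all genes, the vehicle calls were 1914 higher and 1650 lower, and 1217 and 1112 without baseline replicate 1. GC correction changed the list's first split to 14 higher and 12 lower and its second to 15 and 11. Over all genes it gave 1634 higher and 2675 lower with vehicle, and 1834 and 2778 with NSC. Scaling by library size changed the list's second split to 48 and 6, beside 3399 higher and 1795 lower over all genes. By role, RNA polymerase I genes rose in 1 of 10 cases with vehicle and in 6 of 10 with NSC, and exosome genes in 3 and 6 of 13. Small subunit genes rose in 5 and 10 of 44, and large subunit genes in 9 and 14 of 46. No gene of the list was called between treatments, at a median of 0.03, where DESeq2 called 7.

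With vehicle the leading risers were Gnl3l, a nucleolar GTPase, and Sdad1, a large subunit factor. Gnl3l went from 15.0 ± 0.482 to 24.3 ± 1.78 CPM (SD, n = 3) and Sdad1 from 13.4 ± 0.557 to 21.5 ± 0.467 CPM. Their log2 fold changes were 0.69 and 0.68 (edgeR adjusted p = 0.00309 and 0.00352). Sbds, which helps to free the large subunit of an inhibitor, fell from 45.9 ± 2.58 to 31.7 ± 3.63 CPM, and Nop53 (Gltscr2 in the table) from 45.0 ± 2.86 to 30.0 ± 3.38 CPM.

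With NSC the leading risers were Exosc9, a subunit of the RNA exosome, and the helicase Ddx52. Exosc9 went from 11.2 ± 0.438 to 22.3 ± 2.71 CPM (SD, n = 3) and Ddx52 from 14.7 ± 1.04 to 26.4 ± 1.10 CPM. Their log2 fold changes of 1.00 and 0.84 became 0.46 and 0.40 after GC correction. Nop53 fell to 22.6 ± 4.91 CPM and the helicase Ddx54 from 31.0 ± 5.23 to 15.6 ± 1.38 CPM, at -0.99 for each, and these values were -0.97 and -0.56 after GC correction.

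Genes for the 79 cytosolic ribosomal proteins, the parts being assembled, had few calls: 1 rose with vehicle, and with NSC 3 rose and 1 fell, which was 1.27%, 3.8% and 1.27% of the list. Their medians were 0.11 and 0.18, with 60 and 59 of 79 values positive. All vehicle livers lay above all baseline livers for 35 (44.3%), against 24.2% of all genes, and below them for 3 (3.8%), against 22.0%. All NSC livers lay above the baseline for 10 (12.7%), against 24.0% of all genes, and below it for 1 (1.27%), against 23.1%. Over single omissions the NSC median ran from -0.10 to 0.32, and it was below 0 without NSC replicate 3. The NSC calls numbered 15 without NSC replicate 1, all higher, and 0 without baseline replicate 3. They numbered 10 without NSC replicate 3, of which 3 were higher and 7 lower. The vehicle calls numbered 4 and 7 without NSC replicates 1 and 3, all higher, and 0 in each other omission. Their level varied among NSC livers: each gene's log2 CPM was set against its own 9-library mean, and the median of these differences was -0.34, -0.08 and 0.49 in NSC replicates 1 to 3, beside -0.09 to -0.05 at baseline and 0.01 to 0.10 with vehicle. The same score over the members spanned -0.27 to -0.10 at baseline, 0.11 to 0.16 with vehicle and 0.04 to 0.14 with NSC.

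**Figure D5:**
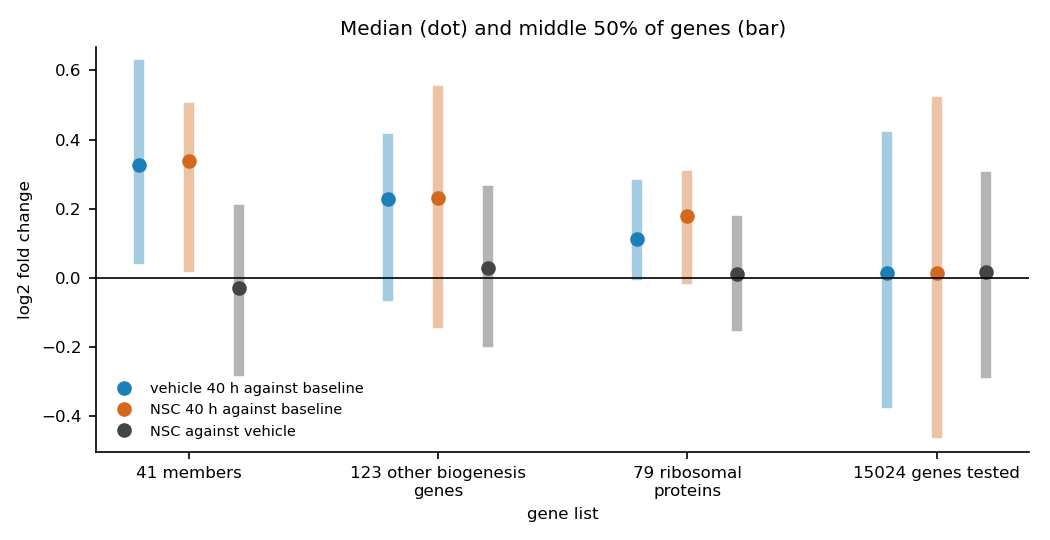
Median log2 fold change (dot) and middle 50% of genes (bar) for the members, the other biogenesis genes, the ribosomal proteins and all genes tested, in each comparison (y axis in log2 units). The medians of the members are 0.33 and 0.34 against baseline and -0.03 between treatments; those of all genes lie at 0.01 to 0.02.

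By FPKM, which scales for gene length, levels at baseline ran from 0.739 for Rrp1b to 37.4 for Nop10. Next below Nop10 were Rrp1 at 32.5 ± 1.66 and Npm1 at 30.0 ± 2.19 FPKM (SD, n = 3), and their difference was smaller than the sum of these SDs. Of the members, 9 overlapped another tested gene, always on the opposite strand: Nop56 with Idh3b, Dkc1 with Mpp1, Nhp2 with Rmnd5b, Rrp9 with Parp3, Bysl with Ccnd3, Tsr1 with Srr, Bop1 with Mroh1, Wdr12 with Carf and Gnl3 with Glt8d1. The kit keeps strand, but whether counting used it is not given in the sources used here, so reads of such pairs may not be told apart.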

How the data were processed

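RNA of 9 whole livers was sequenced from polyadenylated, stranded libraries. Per the labels and methods, STAR 2.6.1 aligned the read pairs and the authors assigned them to genes with featureCounts of Subread 1.5.1. The authors deposited raw counts per gene and FPKM, without pooling replicates. The named reference is hg38, whereas the gene identifiers and coordinates are mouse: 42462 of 43346 identifiers occur in GENCODE M21 (GRCm38), 33460 at the same position. The deposited FPKM of the members were within 0.0902% of values recomputed from the counts, the gene lengths and the library totals.

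Tests on the deposited counts used edgeR 4.0.16 (R 4.3.3): TMM factors, filterByExpr, and 1 robust quasi-likelihood fit of all 9 libraries with the condition as the only term. P-values were adjusted over 15024 genes by the Benjamini-Hochberg method, and a gene was called at an adjusted p under 0.05. Each SE was obtained as the size of the log2 fold change over the root of the test's F. CPM values were scaled by TMM. Mitochondrially encoded genes have 0 counts throughout the table. TMM factors were 0.90 to 1.10.

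The members and lists were chosen with earlier results of these data known. Values in each library are given for the 2 members of each role with the highest mean CPM and the 4 with the smallest p in each comparison. Beside these, Fbl, Gar1 and Rrn3 were added after their values were seen. Of the other 124 pathway genes, 123 had a row, and the 2 risers and 2 fallers with the smallest p in each comparison are named. Alternatives were DESeq2 1.42.0, RLE factors, library size only, other count filters, a block for the replicate number, only the groups compared, a loess GC correction (span 0.5, longest GENCODE M21 transcript), a log2 fold threshold of 1.5 and each library left out. The fit was tested on simulated counts. Python 3.11.15 made the lists and plots.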

Additional observations from a re-analysis of the deposited data

How the results depend on the processing

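With 3 livers per group, the counts of called genes moved with single libraries. Leaving out each library in turn gave 7 to 16 called members with vehicle against baseline, 7 to 18 with NSC and 0 to 3 between treatments, and the members' median log2 fold change with NSC ran from 0.29 to 0.43. For the other pathway genes the ranges were 10 to 36, 29 to 51 and 0 to 5, and for the ribosomal proteins 0 to 7 with vehicle and 0 to 15 with NSC. Over all genes, the number called higher ran from 1217 to 2432 with vehicle, 1854 to 2754 with NSC and 0 to 574 between treatments. The fold threshold left 0 members with vehicle and 1 with NSC, and 0 genes of both other lists in both comparisons. GC correction gave member medians of 0.20 with vehicle and 0.20 with NSC, beside -0.11 and -0.08 over all genes. It called 10 members and 26 pathway genes with NSC, and 0 ribosomal proteins with vehicle. Library size alone gave member medians of 0.48 with NSC and 0.0927 between treatments, beside 0.15 and 0.14 over all genes. It called 9 ribosomal proteins with NSC, and over all genes 3399 higher and 1795 lower. DESeq2 called 8 ribosomal proteins with NSC, and 2 members and 7 pathway genes between treatments. Over all genes it called 2941 higher and 2778 lower with NSC, and 286 and 470 between treatments. The fit without a count filter called 3 pathway genes between treatments, beside 68 higher and 153 lower over all genes. Only the groups compared gave 37 pathway genes and 11 ribosomal proteins with vehicle, beside 2412 higher and 2062 lower over all genes. The causes were not tested.

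Among the members named with values, the signs that turned were of values not called with all libraries. Under GC correction the signs of 5 of 41 members turned with vehicle, 4 with NSC and 9 between treatments. Of the named members these were Ubtf at -0.0164 with vehicle, 0.0566 with NSC and 0.073 between treatments, Ncl at -0.12 and Dkc1 at -0.13 with NSC, Npm1 at -0.0561 with vehicle and Tsr1 at -0.0502 between treatments. Under library size they were Ubtf at 0.0474 and Nop10 at 0.0883 with NSC and Ncl at 0.0106 with vehicle. Ncl was also at 0.0076 with vehicle under the minimum of 10 counts and at 0.0015 with only the groups compared. Over single omissions, values with vehicle ran from -0.0157 to 0.15 for Ubtf, -0.0586 to 0.0806 for Ncl, -0.13 to 0.0686 for Rrp1 and -0.0884 to 0.0203 for Pes1. With NSC they ran from -0.16 to 0.0161 for Ubtf, -0.28 to 0.0698 for Polr1a, -0.25 to 0.0651 for Nop10 and -0.12 to 0.23 for Rrp12. Between treatments they ran from -0.11 to 0.47 for Nhp2 and -0.072 to 0.15 for Tsr1.

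Baseline livers came from vehicle-treated mice, so no NSC liver shares a mouse with a baseline or vehicle liver. Whether equal replicate numbers mark 1 mouse in baseline and vehicle, or samples paired in another way, could not be decided from the values. Correlations of same-numbered livers ran from -0.05 to 0.13, and only 1 of 9 was above 0.1, that of vehicle and NSC replicate 1. Between baseline and vehicle they were 0.08, 0.07 and -0.05 for replicates 1 to 3. Those of differently numbered livers ran from -0.12 to 0.07. With 3 livers per group, such small correlations do not settle the question. With the replicate number as a block, 14, 13 and 0 members were called in the 3 comparisons and 21, 45 and 0 other pathway genes, with 1, 5 and 0 ribosomal proteins. Under the block Bop1, Nob1 and Rrs1 were not among the NSC calls, and Nhp2 was added to the vehicle calls.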

Other observations

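Ratios of deposited FPKM within a particle were computed after the values were seen and are given with no test. Nop58 relative to Fbl was 0.0682 to 0.103 in baseline livers, 0.140 to 0.216 with vehicle and 0.245 to 0.391 with NSC, without overlap. Nop56 relative to Fbl was 0.191 to 0.235, 0.341 to 0.403 and 0.426 to 0.682, again without overlap. Gar1 relative to Dkc1 was 0.418 to 0.632 at baseline, 1.01 to 1.09 with vehicle and 0.709 to 0.873 with NSC, so the vehicle livers were highest. Wdr12 relative to Pes1 was 0.102 to 0.113, 0.122 to 0.161 and 0.181 to 0.220. Other ratios overlapped between some of the groups. Nhp2 relative to Dkc1 was 3.37 to 4.46 at baseline, 5.61 to 6.72 with vehicle and 3.45 to 8.21 with NSC. Its NSC range overlapped both others, which lay apart. Wdr12 relative to Bop1 was 0.0965 to 0.145, 0.106 to 0.195 and 0.268 to 0.328. Its baseline and vehicle ranges overlapped, and its NSC range was above both. Only 3 livers stand behind each range. The FPKM were not corrected for GC content, which moved with the difference between NSC and vehicle across the members. By the longest transcript, Nop58 and Nop56 have a lower GC content than Fbl, and Wdr12 a lower one than Pes1 and Bop1. Gar1 and Nhp2 have a higher GC content than Dkc1. The part of GC content in the order of NSC and vehicle in these ratios was not tested.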
